A study of Mus musculus with 9 samples.

Results

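The MYC, MAX and MXD network is a family of basic helix-loop-helix leucine zipper transcription factors, and it is described here by 10 genes: Myc, Mycn, Mycl, Max, Mxd1, Mxd3, Mxd4, Mnt, Mga and Mlx. The rule takes the genes by name, matched through the Ensembl identifiers of the count files, and uses no measured value, although the list was drawn up with earlier results of these data known. All 10 were among the 55335 identifiers counted, and 9 of them passed the filter on low counts, which 14335 genes passed in all. Mycn had no read in any library.

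The cells were D2A1-d, a murine breast carcinoma line, and the labels list every group as Untreated. The control group was transduced with a non-targeting hairpin (NTC, genotype WT in the labels). The other groups each carried a different hairpin directed at Med4 and are named for it, shMed4 #1 and shMed4 #4 (genotype Med4 Knockdown). The MED4 protein belongs to Mediator, which connects DNA-bound transcription factors to RNA polymerase II. Each of the 3 groups had 3 libraries numbered as biological replicates. The labels do not say how the cultures were kept apart, or whether the transduced cells were clones or pools. The p-values therefore measure only the spread between these libraries.

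MYC proteins bind DNA as dimers with MAX, mostly at the E-box, and recruit coactivators to genes for ribosome production, metabolism and the cell cycle. MXD proteins, MNT and MGA compete for MAX and bind the same sites, where MXD proteins and MNT bring in SIN3 and histone deacetylases and MGA brings in a Polycomb complex. MLX is a MAX-like partner of the glucose-sensing factors MondoA and ChREBP and also pairs with some MXD proteins and MNT. MYC amplification or excess is common in breast carcinoma, and the balance between MYC and its competitors is a textbook regulator of growth and quiescence.

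The E-box through which these proteins act is also present near the start sites of some of their own genes, and these sites are shown because the proteins of the network can bind such sequence. RefSeq promoter windows (GRCm38.p6, 250 bases before to 50 after each start site) had an entry for 9 of the 10 genes, all but Myc. The E-box CACGTG, which reads the same on both strands, was in 4 of these 9 (44.4%), against 2187 of all 27025 genes with an entry (8.09%) and 7.15% of all 32851 windows. Among genes that passed the filter on low counts and had an entry, 1172 held the E-box and 8699 did not. Each site is printed 5′ to 3′ on the gene's strand with the E-box in capitals and 12 bases on each side. The Max site starts 3 bases before the RefSeq start site, that of Mlx 40, that of Mnt 123 and that of Mxd4 219 bases before it. In the windows of Mycn, Mycl, Mxd1, Mxd3 and Mga these letters were not found. The window of Mycl was the only 1 of the 9 (11.1%) to hold the hexamer TATAAA, on either strand, which 15.7% of all genes had in theirs. Any link of this match to the change of Mycl was not tested. The last 30 bases before the RefSeq start of Mycl are shown with that hexamer in capitals. They lie inside the annotated gene, which begins at 122995652.
Max, chr12:76962234-76962263, minus strand: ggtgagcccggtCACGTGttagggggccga
Mlx, chr11:101087238-101087267, plus strand: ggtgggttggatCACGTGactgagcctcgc
Mnt, chr11:74830789-74830818, plus strand: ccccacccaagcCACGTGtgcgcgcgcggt
Mxd4, chr5:34187912-34187941, minus strand: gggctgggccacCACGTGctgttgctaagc
Mycl, chr4:122995901-122995930, plus strand: aagccccgggcacgcgacgagaTATAAAgc

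The libraries held 7572114 to 8582235 reads assigned to genes. Levels are given as CPM (counts per 1000000 gene reads, with library sizes scaled by the TMM method). Med4, the targeted gene, was at 27.4 ± 2.19 CPM with NTC, 4.53 ± 0.386 CPM with shMed4 #1 and 7.21 ± 0.982 CPM with shMed4 #4 (SD over 3 libraries). It was lower with shMed4 #1 than with shMed4 #4 (edgeR adjusted p = 0.00401 for their difference). The labelled mammary carcinoma identity was checked on 9 luminal markers. Cdh1 and Cldn4 were at 0 in every library and 6 of the 9 stayed under 1 CPM everywhere. The summed level of those markers, carried by the keratins Krt18 and Krt8, was 33.2 to 35.5 CPM with NTC, 108 to 125 CPM with shMed4 #1 and 185 to 217 CPM with shMed4 #4. The 8 basal markers summed to 201 to 221, 695 to 734 and 945 to 1110 CPM in the same order, nearly all of it Acta2. The 10 leukocyte markers summed to 7.46 to 9.08 CPM with NTC, 3.99 to 5.96 CPM with shMed4 #1 and 5.15 to 6.70 CPM with shMed4 #4, and the 6 endothelial markers to 1.29 to 1.87, 2.73 to 3.93 and 2.07 to 3.10 CPM, with Cd3e, Tie1 and Emcn at 0. Of the 8 fibroblast markers, 3 stayed under 1 CPM, and the sum of the 8 was 263 to 297 CPM with NTC, 236 to 253 CPM with shMed4 #1 and 229 to 247 CPM with shMed4 #4. The single fibroblast markers did not move one way. Of the 4 tested, 2 were higher and 2 lower with each hairpin (median log2 fold change 0.56 with shMed4 #1 and 0.70 with shMed4 #4). Of all genes tested, 41.6% and 55.1% were called with these hairpins. For these 5 marker lists the sums with each hairpin did not overlap those with NTC. Of all genes tested singly, 49.1% had no overlap with NTC for shMed4 #1 and 59.6% for shMed4 #4. The 4 adipocyte markers never summed above 0.387 CPM. The part of these markers in the results on the network was not tested. In a bulk culture, fewer cells with a transcript and less of it per cell cannot be told apart.

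Knockdown was compared with NTC for each hairpin, for the mean of both, and hairpin against hairpin. With the mean of both hairpins, 7 of the 9 tested network genes passed the threshold (edgeR, adjusted p under 0.05 over all genes tested), 2 higher (Max and Mxd1) and 5 lower (Mycl, Mxd3, Mxd4, Mnt and Mga). The threshold was passed by 53.3% of all genes tested, 26.8% higher and 26.5% lower, so a change of some size was the usual state of a gene in these cells. With upper-quartile in place of TMM factors, 1 was higher (Max) and the same number were lower, since Mxd1 lost its call. The median log2 fold change of the 9 was -0.27, against -0.01 over all genes tested. Taken singly, shMed4 #1 called 6 of 9 (2 higher, 4 lower; 41.6% of all genes were called) and shMed4 #4 called 7 of 9 (2 higher, 5 lower; 55.1% of all genes). Both hairpins share the NTC libraries. Between shMed4 #4 and shMed4 #1, 4 of 9 differed, Myc higher and Mycl, Mxd3 and Mxd4 lower with shMed4 #4 (28.0% of all genes differed).

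**Figure D1:**
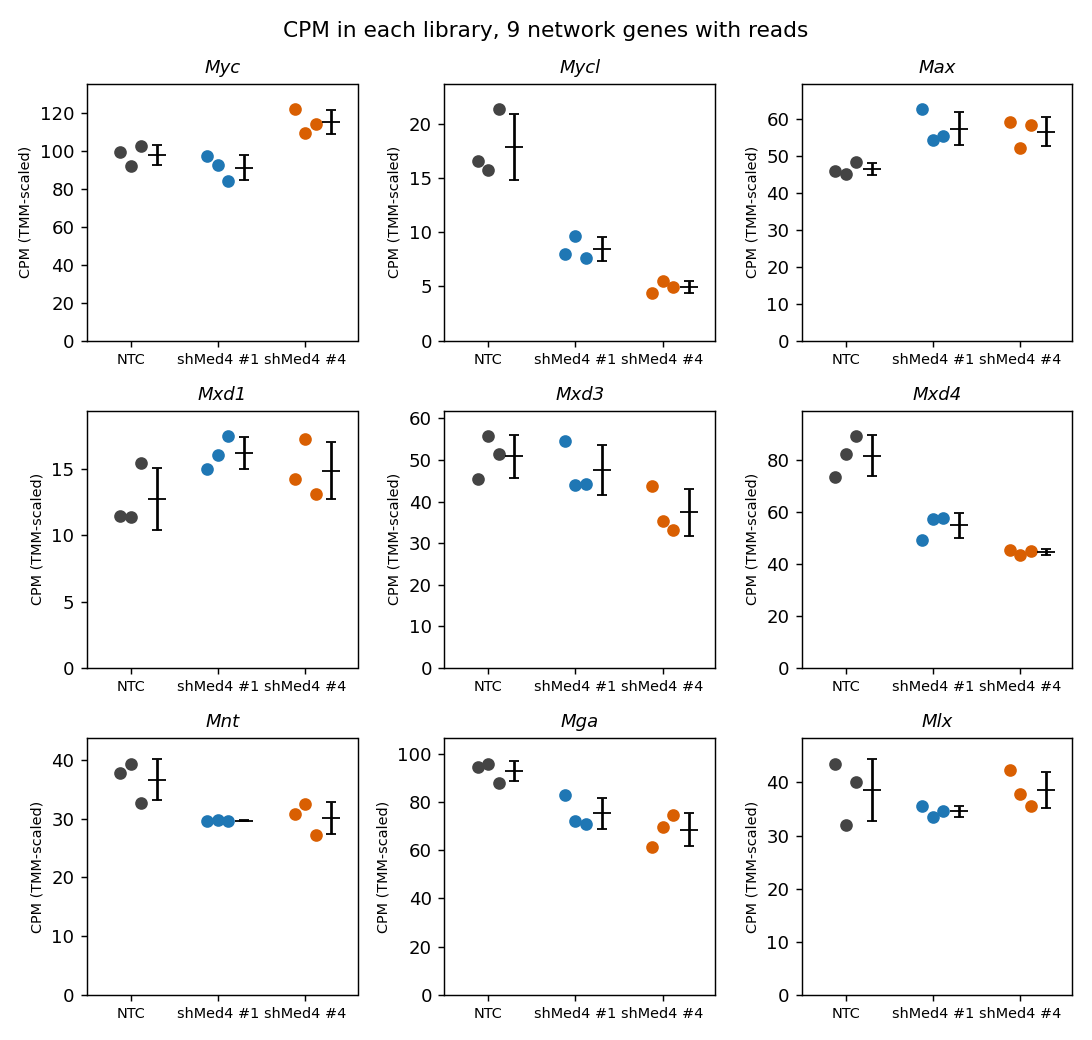
CPM (vertical axes, from 0) of the 9 network genes with reads in each of the 3 NTC (grey), 3 shMed4 #1 (blue) and 3 shMed4 #4 (orange) libraries, with the mean and SD of each group in black. Mycl and Mxd4 step down from NTC through shMed4 #1 to shMed4 #4 with no overlap between groups, while Myc is high only in the shMed4 #4 libraries (110 to 122 CPM).

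Myc (ENSMUSG00000022346, chromosome 15, 61985391 to 61990374, plus strand, GRCm38), the founding oncogene of the family, was the most abundant network transcript. It stood at 99.5, 92.2 and 103 CPM in the NTC libraries, at 97.3, 92.4 and 84.4 CPM with shMed4 #1 and at 122, 110 and 114 CPM with shMed4 #4. All 3 shMed4 #4 libraries lay above all others, and the shMed4 #1 and NTC libraries overlapped. Myc rose 1.18-fold with shMed4 #4 (log2 fold change 0.23, SE 0.062, adjusted p = 0.00147), and its value with shMed4 #1 was -0.10 (SE 0.063, adjusted p = 0.188, 95% interval -0.23 to 0.02). The hairpins themselves differed 1.26-fold (log2 0.34, SE 0.062, edgeR adjusted p = 5.23e-05). The mean of both hairpins, 0.06 (adjusted p = 0.324), averages these unlike values.

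The genes around Myc on chromosome 15 had values above 0 on balance. The median log2 fold change of the 50 nearest tested genes, 25 on each side, was 0.23 with shMed4 #4, the same size as that of Myc, and 0.13 with shMed4 #1. Set against that local median, Myc stood at 0.00 with shMed4 #4 and at -0.23 with shMed4 #1, and the difference between hairpins was 0.24. The part of the local shift in the result was not tested. Pvt1, the noncoding transcript that neighbours Myc at a distance of 47.6 kb, had mean levels of 12.9 ± 1.68 CPM (NTC), 10.8 ± 1.12 CPM (shMed4 #1) and 11.0 ± 1.63 CPM (shMed4 #4), each with the SD over n = 3. Its log2 fold change over both hairpins was -0.24 and missed the threshold (edgeR adjusted p = 0.0905), although without shMed4 #4 replicate 3 it passed (adjusted p = 0.0404). The nearest tested gene on the other side, Fam84b, lay 1131.6 kb away and fell by 0.37 (adjusted p = 0.0444).

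Mycl (ENSMUSG00000028654, chromosome 4, 122995652 to 123002485, plus strand), which encodes L-MYC, changed more than any other network gene. Its levels were 16.5, 15.8 and 21.4 CPM with NTC, 7.95, 9.68 and 7.64 CPM with shMed4 #1 and 4.39, 5.46 and 4.90 CPM with shMed4 #4. The 3 groups did not overlap. Mycl fell 2.13-fold with shMed4 #1 (log2 -1.09, SE 0.14, adjusted p = 5.72e-08) and 3.64-fold with shMed4 #4 (log2 -1.86, SE 0.16, edgeR adjusted p = 9.98e-13). The further decrease from shMed4 #1 to shMed4 #4 was 1.71-fold (log2 -0.77, SE 0.18, adjusted p = 0.00116). Behind these values stood 429 reads over the 3 NTC libraries, 210 with shMed4 #1 and 120 with shMed4 #4. Its 50 nearest tested genes had medians of 0.08 and 0.06, and Trit1, 14.1 kb away, was at -0.07 (adjusted p = 0.475). On the other side 4933421A08Rik, a gene of low level (1.61 CPM on average) at 32.2 kb on the same strand, was also lower, by -0.77 over both hairpins (adjusted p = 0.0289) and -0.92 with shMed4 #1 (adjusted p = 0.0364).

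Mycn (ENSMUSG00000037169, chromosome 12, 12936093 to 12941914, minus strand), the third MYC gene, was at 0 reads in all 9 libraries. A count of 0 allows up to 3 reads, or 0.396 CPM in the smallest library, counting error only. Of the MYC genes, Myc and Mycl were therefore the transcripts detected in these cells.

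Max (ENSMUSG00000059436, chromosome 12, 76937269 to 76962201, minus strand), the common partner of MYC, MXD, MNT and MGA proteins, rose with both hairpins. Its levels were 46.1, 45.1 and 48.4 CPM with NTC, 62.7, 54.3 and 55.5 CPM with shMed4 #1 and 59.3, 52.1 and 58.6 CPM with shMed4 #4. Every knockdown library lay above every NTC library, and the knockdown groups overlapped each other. The rise was 1.24-fold with shMed4 #1 (log2 0.30, SE 0.074, adjusted p = 0.000949) and 1.22-fold with shMed4 #4 (log2 0.28, SE 0.074, edgeR adjusted p = 0.00133). The difference between hairpins was -0.02, with a 95% interval of -0.16 to 0.12. The local medians around Max were 0.00 and -0.12, and its neighbour Fntb was at 0.01 over both hairpins (adjusted p = 0.961). On the other side 9530018F02Rik, 273.9 kb away, was at -0.60 (adjusted p = 0.0255).

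Among the MXD genes, whose products antagonise MYC, Mxd4 and Mxd3 were lower and Mxd1 higher. Mxd4 (ENSMUSG00000037235, chromosome 5, 34173883 to 34187720, minus strand) stood at 73.3, 82.4 and 89.0 CPM with NTC, at 49.3, 57.2 and 57.6 CPM with shMed4 #1 and at 45.2, 43.3 and 44.9 CPM with shMed4 #4. As for Mycl, the 3 groups did not overlap and the order was NTC, shMed4 #1, shMed4 #4. Mxd4 fell 1.49-fold with shMed4 #1 (log2 -0.57, SE 0.072, adjusted p = 2.82e-08) and 1.83-fold with shMed4 #4 (log2 -0.87, SE 0.074, edgeR adjusted p = 1.03e-12), and the hairpins differed by -0.30 (SE 0.078, adjusted p = 0.00317). The local medians were -0.12 and -0.18, which leave -0.46 and -0.70. Rnf4, 148.6 kb away, was at -0.15 over both hairpins (adjusted p = 0.00571). The antisense gene Gm42846 overlaps 6.06% of the Mxd4 exon bases and was at -0.57 over both hairpins. Whether reads were counted by strand is not given in the sources used here, so in the overlap the reads of the pair cannot be told apart.

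Mxd3 (ENSMUSG00000021485, chromosome 13, 55325168 to 55329823, minus strand), an MXD gene known to be expressed in proliferating cells, was at 45.4, 55.7 and 51.5 CPM with NTC, 54.5, 43.9 and 44.3 CPM with shMed4 #1 and 43.7, 35.4 and 33.1 CPM with shMed4 #4. The shMed4 #4 libraries lay below both other groups, by a small margin, and the shMed4 #1 libraries overlapped NTC. It fell 1.36-fold with shMed4 #4 (log2 -0.44, SE 0.093, edgeR adjusted p = 0.000115), was at -0.10 with shMed4 #1 (adjusted p = 0.413), and the hairpins differed by -0.35 (SE 0.094, adjusted p = 0.00477). That last call was lost without shMed4 #1 replicate 1 (-0.23, adjusted p = 0.0629) or shMed4 #4 replicate 3 (-0.26, adjusted p = 0.0572), and the call over both hairpins (-0.27, adjusted p = 0.00404) was lost without NTC replicate 2 (-0.20, adjusted p = 0.0696). The local median was -0.20 with shMed4 #4, which leaves -0.24 when subtracted. Prelid1, on the opposite strand, overlaps 4.43% of the Mxd3 exon bases and fell by 0.31, and Lman2, 14.0 kb away, fell by 0.36.

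Mxd1 (ENSMUSG00000001156, chromosome 6, 86647042 to 86669161, minus strand), the first MXD gene described and often raised during differentiation, had the lowest NTC level of the 9. It was at 11.4, 11.4 and 15.5 CPM with NTC, 15.0, 16.1 and 17.5 CPM with shMed4 #1 and 14.3, 17.3 and 13.1 CPM with shMed4 #4. The highest NTC library reached into both knockdown groups. Over both hairpins Mxd1 was 1.22-fold higher (log2 0.28, SE 0.12, edgeR adjusted p = 0.0395), 0.34 with shMed4 #1 (adjusted p = 0.0333) and 0.22 with shMed4 #4 (adjusted p = 0.167). The call over both hairpins was lost without NTC replicate 1 (adjusted p = 0.204), NTC replicate 2 (0.208), shMed4 #1 replicate 3 (0.0803) or shMed4 #4 replicate 2 (0.109), and under DESeq2 (adjusted p = 0.128). The medians of its 50 neighbours were 0.10 and 0.38, and Snrnp27, 5.99 kb away, rose by 0.43 over both hairpins, while 1600020E01Rik on the other side was at -0.25 (adjusted p = 0.0828). After subtraction of the local median Mxd1 stood at 0.24 with shMed4 #1 and -0.16 with shMed4 #4.

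Mxi1, the remaining MXD family gene and no member of the list above, averaged 57.3 ± 1.06 CPM (NTC), 40.8 ± 2.83 CPM (shMed4 #1) and 38.9 ± 3.58 CPM (shMed4 #4), each with the SD over n = 3. Its values fell by 0.49 and 0.56 on the log2 scale (edgeR adjusted p = 1.77e-06 and 9.30e-08). Of the MXD family, Mxd4 and Mxi1 thus fell with both hairpins, Mxd3 passed the threshold with shMed4 #4 and Mxd1 went the other way.

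Mnt and Mga, the large MAX partners that oppose MYC, were both lower with each hairpin. Mnt (ENSMUSG00000000282, chromosome 11, 74830920 to 74845725, plus strand) was at 37.8, 39.4 and 32.8 CPM with NTC, 29.7, 29.8 and 29.6 CPM with shMed4 #1 and 30.7, 32.5 and 27.2 CPM with shMed4 #4. All 6 knockdown libraries lay below the NTC libraries, the nearest pair being 32.5 and 32.8 CPM. The log2 fold change was -0.30 (SE 0.088, adjusted p = 0.00516) with shMed4 #1 and -0.28 (SE 0.088, edgeR adjusted p = 0.00677) with shMed4 #4. The second call was lost without NTC replicate 2 (-0.23, adjusted p = 0.0561), without shMed4 #4 replicate 3 (-0.21, adjusted p = 0.0726) and under DESeq2 (-0.27, adjusted p = 0.0503). The local medians around Mnt were -0.12 and -0.19, which leave -0.18 and -0.09, and Mettl16, 2.40 kb away, fell by 0.20 over both hairpins, while Sgsm2, 3.54 kb away on the other side, was at 0.00 (adjusted p = 0.968).

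Mga (ENSMUSG00000033943, chromosome 2, 119897228 to 119969581, plus strand) was at 94.6, 96.0 and 88.1 CPM with NTC, 82.8, 72.4 and 70.9 CPM with shMed4 #1 and 61.3, 69.5 and 74.8 CPM with shMed4 #4. Each knockdown library was below each NTC library, while the hairpins overlapped. Mga fell 1.23-fold with shMed4 #1 (log2 -0.30, SE 0.068, adjusted p = 0.000444) and 1.36-fold with shMed4 #4 (log2 -0.44, SE 0.069, edgeR adjusted p = 1.39e-06). The local medians were -0.17 and -0.19, which leave -0.13 and -0.25. Its neighbours Mapkbp1 and Tyro3 were at -0.00 (adjusted p = 0.976) and -0.06 (adjusted p = 0.556) over both hairpins. For Tyro3 that mean averages unlike values, -0.29 with shMed4 #1 (edgeR adjusted p = 0.0104) and 0.17 with shMed4 #4 (adjusted p = 0.0900). The difference of Mga between hairpins was -0.14 (adjusted p = 0.156, 95% interval -0.27 to 0.00).

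Mlx (ENSMUSG00000017801, chromosome 11, 101087277 to 101092207, plus strand) passed no threshold in the 4 comparisons. Its levels were 43.5, 32.0 and 40.1 CPM with NTC, 35.5, 33.5 and 34.6 CPM with shMed4 #1 and 42.3, 37.9 and 35.6 CPM with shMed4 #4. The range of the NTC libraries took in all 6 knockdown libraries. The log2 fold changes were -0.16 with shMed4 #1 (adjusted p = 0.161, 95% interval -0.34 to 0.02) and 0.00 with shMed4 #4 (edgeR adjusted p = 0.992, 95% interval -0.18 to 0.18). NTC replicate 2 decides the first of these, since without it Mlx was lower with shMed4 #1 (-0.28, adjusted p = 0.0174) and over both hairpins (-0.20, adjusted p = 0.0469). The local medians were -0.06 and -0.18, which leave -0.10 and 0.18 when subtracted, and Coasy, 0.658 kb away, was at -0.29 over both hairpins (adjusted p = 0.00296). Psmc3ip on the opposite strand overlaps 19.3% of the Mlx exon bases, so part of the Mlx reads cannot be told apart from those of that gene.

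**Figure D2:**
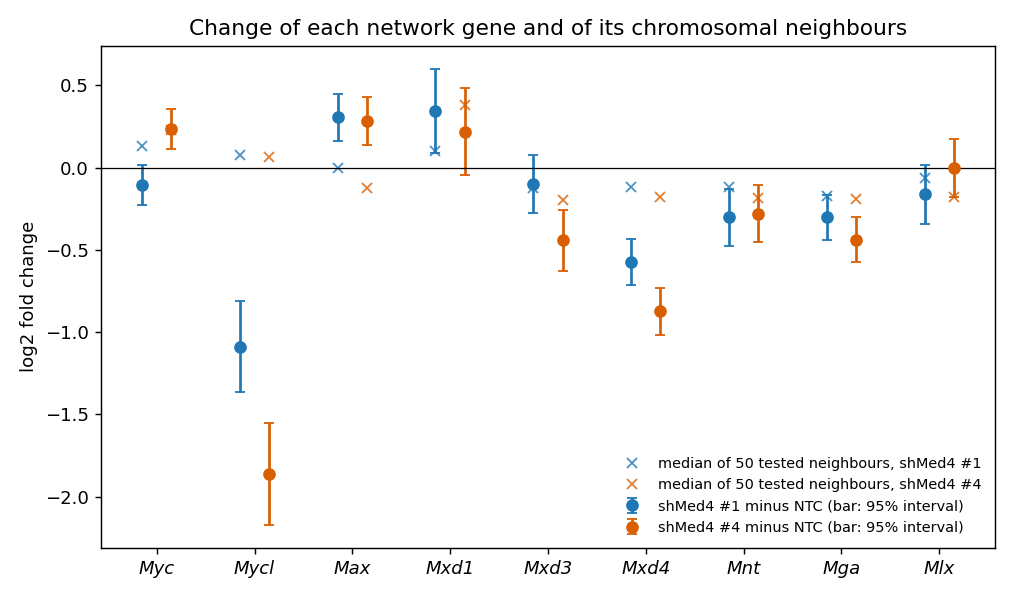
Log2 fold change (vertical axis) of each of the 9 tested network genes with shMed4 #1 (blue) and shMed4 #4 (orange) against NTC, with 95% intervals, and crosses for the median of the 50 nearest tested genes. The circles of Mycl, Mxd4 and Max stand clear of their crosses, while the orange circle and cross of Myc coincide at 0.23.

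The groups of libraries did not overlap in 5 of the 9 genes for shMed4 #1 against NTC (Mycl, Mxd4, Mnt and Mga lower, Max higher), where 49.1% of all genes tested had no overlap, 25.2% higher and 23.9% lower. For shMed4 #4 against NTC this held for 7 of the 9 (Myc and Max higher, Mycl, Mxd3, Mxd4, Mnt and Mga lower), against 59.6% of all genes, 29.8% in each direction. For shMed4 #4 against shMed4 #1 it held for 5 (Myc and Mlx higher, Mycl, Mxd3 and Mxd4 lower), against 40.2%, 20.0% higher and 20.2% lower. With 9 genes and so large a background, these counts are a description of the network and set it apart from other genes in no way.

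Levels of different genes can be compared only per length, and for this the CPM was divided by the kilobases of merged exons. On that scale the NTC order was Myc at 36.1 ± 1.96, Mxd3 at 21.5 ± 2.18, Mlx at 19.3 ± 2.96, Max at 12.9 ± 0.465, Mxd4 at 9.61 ± 0.931, Mnt at 7.92 ± 0.747, Mga at 6.06 ± 0.274, Mycl at 4.43 ± 0.751 and Mxd1 at 1.80 ± 0.332 CPM per kb (SD, n = 3). Mxd3 and Mlx overlapped between libraries, and every other pair of neighbours in the order was separate. The order depends on the length used, since over the longest transcript Max stood at 24.0, above Mlx at 19.6. Myc had 2.79 ± 0.0749 times the level of Max per length of merged exons with NTC, and 1.75 ± 0.0470 times over the longest transcripts. Mycl had 12.2 ± 1.55% of the level of Myc.

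**Figure D3:**
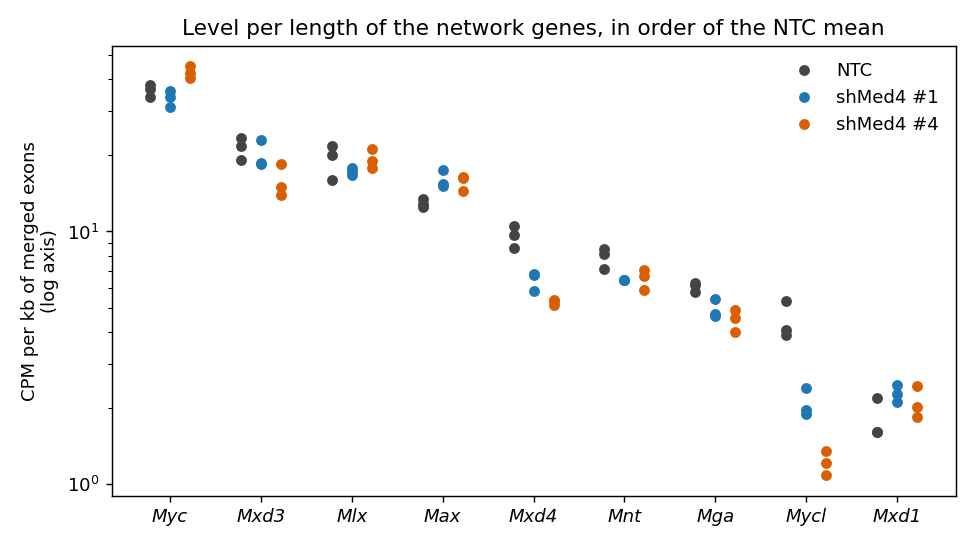
CPM per kb of merged exons (vertical log axis) of the 9 network genes with reads, in the order of their NTC means, for each library of NTC (grey), shMed4 #1 (blue) and shMed4 #4 (orange). Myc leads in all 9 libraries, and Mycl moves from above Mxd1 with NTC (4.43 against 1.80) to below it with shMed4 #4 (1.22 against 2.10).

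The makeup of the network's summed level per length is given as a description, with no test. Myc held 30.2 ± 0.797% of it with NTC, 30.8 ± 1.08% with shMed4 #1 and 37.6 ± 0.824% with shMed4 #4. Mycl went from 3.69 ± 0.503% to 1.92 ± 0.286% and 1.09 ± 0.168%, and Max from 10.8 ± 0.0421% to 14.6 ± 0.485% and 14.0 ± 0.841%. The MYC antagonists Mxd1, Mxd3, Mxd4, Mnt and Mga together held 39.2 ± 3.14% with NTC, 36.8 ± 0.554% with shMed4 #1 and 30.2 ± 1.02% with shMed4 #4.

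The ratio of the summed antagonist level to the summed Myc and Mycl level was 1.07, 1.31 and 1.10 in the NTC libraries, 1.13, 1.06 and 1.18 with shMed4 #1 and 0.791, 0.816 and 0.735 with shMed4 #4. It lay below 1 in the shMed4 #4 libraries and above 1 in the other 6. The same held over the longest transcripts, with 0.850 to 0.938 for shMed4 #4 and at least 1.25 elsewhere. Mxi1, which is no member of the list, was left out of the antagonist sum, and its inclusion would raise every ratio. Over the longest transcripts, the Mxi1 level with shMed4 #4 (38.9 CPM on average, 5036 bases) is large enough to lift those ratios above 1. Per length of merged exons it is not. The position below 1 therefore depends on the genes listed and on the length used. Myc per Max was 2.11 ± 0.129 with shMed4 #1 and 2.70 ± 0.101 with shMed4 #4. All 3 shMed4 #1 libraries (2.01 to 2.25) lay below the NTC range of 2.71 to 2.86, and the shMed4 #4 libraries (2.59 to 2.78) overlapped it. Over the longest transcripts the means were 1.32 and 1.69, against 1.75 with NTC. Transcript ratios are given here, and protein levels and dimers were not measured.

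Genes that MYC is known to activate, for ribosome assembly, nucleotide and folate metabolism and the cell cycle, were examined as a list of 55, all of which were tested. With shMed4 #4 27 were higher and 7 lower (27.8% and 27.3% of all genes), with a median log2 fold change of 0.20 against -0.01 over all genes. With shMed4 #1 7 were higher and 18 lower (21.8% and 19.8% of all genes), with a median of -0.06. Between shMed4 #4 and shMed4 #1, 36 were higher and 2 lower, 65.5% and 3.64% of the list, where 14.2% and 13.9% of all genes were, and the median difference was 0.21 against -0.00. The 2 lower genes were Ccnd2 and Eif4e. Over both hairpins 21 were higher and 11 lower (26.8% and 26.5% of all genes), with a median of 0.02.

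**Figure D4:**
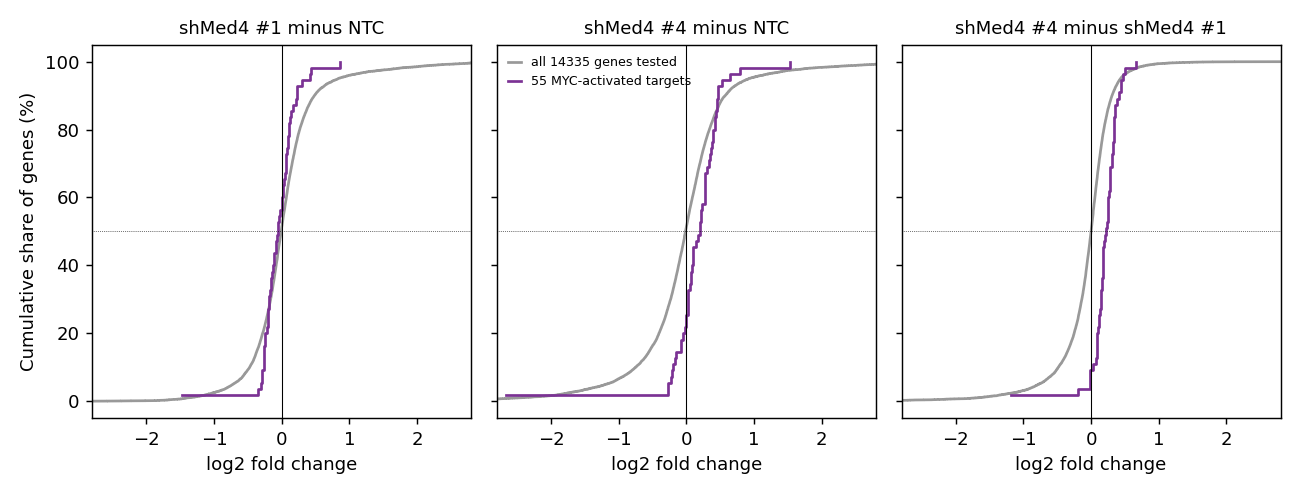
Cumulative share of genes (vertical axis, percent) by log2 fold change (horizontal axis) for the 55 MYC-activated targets (purple) and all 14335 genes tested (grey), for shMed4 #1 minus NTC, shMed4 #4 minus NTC and shMed4 #4 minus shMed4 #1. The purple curve crosses 50% at -0.06, 0.20 and 0.21, and its single gene far to the left is Ccnd2.

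The targets with the smallest p-values did not move one way. Bcat1, the cytosolic branched-chain aminotransferase, was at 99.7, 90.3 and 88.7 CPM with NTC, 174, 174 and 162 CPM with shMed4 #1 and 270, 278 and 262 CPM with shMed4 #4, and rose by 1.20 over both hairpins (SE 0.051, edgeR adjusted p = 1.52e-21). Ccnd2, cyclin D2, went from 48.0, 39.3 and 44.9 CPM to 14.0, 18.9 and 14.6 CPM and then 6.10, 7.08 and 7.72 CPM, and fell by 2.07 (SE 0.094, adjusted p = 1.27e-20). Both genes stepped in the order NTC, shMed4 #1, shMed4 #4 with no overlap.
Mthfd2, a mitochondrial folate enzyme, rose by 0.41 with shMed4 #1 and 0.80 with shMed4 #4, and Bop1, a ribosome assembly factor, by 0.30 and 0.64.

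The 4 most abundant targets were Npm1, Hspd1, Ncl and Eif4a1, which encode nucleophosmin, a mitochondrial chaperone, nucleolin and a translation initiation helicase. Npm1 was at -0.20 with shMed4 #1 (edgeR adjusted p = 0.00197) and 0.08 with shMed4 #4 (adjusted p = 0.192), and the hairpins differed by 0.28 (adjusted p = 6.56e-05). Ncl was at 0.06 (adjusted p = 0.381) and rose by 0.40 (adjusted p = 1.03e-07), a difference of 0.33. Eif4a1 fell by 0.20 with shMed4 #1 and was at -0.08 with shMed4 #4 (adjusted p = 0.169), while Hspd1 passed in none of the 4 comparisons.

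Of 49 activated targets with a promoter entry, 12 (24.5%) held CACGTG in the window. Between the hairpins, 6 of these 12 were higher and 1 lower with shMed4 #4, with a median of 0.14, and of the 37 without it 25 were higher and 0 lower, with a median of 0.26. Against NTC, 2 of the 12 were higher and 3 lower with shMed4 #4 (median 0.01), 0 and 4 with shMed4 #1 (median -0.10), and 2 and 5 over both hairpins (median -0.07). Of the 37 without the hexamer, 22 were higher and 3 lower with shMed4 #4 (median 0.23), 6 and 11 with shMed4 #1 (median -0.02), and 16 and 5 over both (median 0.14). The difference between the 12 and the 37 was not tested. Over all tested genes with a promoter entry, the 1172 with CACGTG had a median of 0.03 between the hairpins (18.2% higher, 13.4% lower). The 8699 without it were at -0.00 (14.9% higher, 14.6% lower). Against NTC over both hairpins, 28.2% of the 1172 were higher and 28.4% lower (median -0.01). Of the 8699, 28.4% were higher and 26.3% lower (median -0.00). With shMed4 #4 the shares were 30.5% and 28.1% of the 1172, and 29.4% and 27.6% of the 8699. With shMed4 #1 they were 21.4% and 22.8%, and 23.4% and 19.6%. A match is a description of the letters in the window and does not show binding.

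Genes that MYC is known to repress were listed as 13, of which 9 were tested, and 4 were higher and 4 lower over both hairpins (median -0.08), where 26.8% of all genes were higher and 26.5% lower. Thbs1, an inhibitor of blood vessel growth, fell by 0.61, and Cdkn1b, the CDK inhibitor p27, by 0.60. Gadd45b, a stress response gene, fell by 0.49, while Bcl2, an apoptosis inhibitor, rose by 0.65.

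Together with the repressed targets, 8 lists of other genes tied to the network were examined over both hairpins. Of their 106 tested genes, 40 were higher and 26 lower, 62.3% in all against 53.3% of all genes. The counts moved with the scaling. With upper-quartile factors 29 were higher and 28 lower, where 3355 and 4353 of all 14335 genes were. With TMM factors 3848 of all genes were higher and 3792 lower. The share of all genes called, 53.3%, is the background for each of the lists that follow. Of 8 tested basic helix-loop-helix zipper factors outside the network, 1 was higher and 2 lower (37.5%, median 0.03), with Mxi1 among the lower ones. Tfe3, a lysosome and stress regulator, rose by 0.49, and Tfap4, a transcription factor known as a MYC target, fell by 0.88. Mlxip, which encodes the MLX partner MondoA, was at -0.08 (adjusted p = 0.340), and Mlxipl, the gene for ChREBP, was not tested because nearly no reads were counted. Both MondoA targets that were tested, of 3 listed, were higher, but for Arrdc4 the filter on low counts fixed this direction in advance. Txnip, a brake on glucose uptake, rose from 76.6 ± 5.42 CPM to 95.9 ± 9.51 and 99.8 ± 4.81 CPM (log2 0.35 over both hairpins, edgeR adjusted p = 4.13e-06), although an antisense gene overlaps 19.4% of its exon bases. Arrdc4, an arrestin-domain relative of Txnip, had 0, 0 and 1 reads with NTC, 7, 9 and 7 with shMed4 #1 and 16, 13 and 11 with shMed4 #4. Only the shMed4 #4 libraries reached the minimum count of 10, so Arrdc4 was tested only through the group where it was highest. Its call is therefore not read as a result.

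MYC cofactors, such as histone acetyltransferase subunits, passed the threshold in 11 of 22 genes over both hairpins, 3 higher and 8 lower (median -0.01), a share of 50% that is no larger than the 53.3% of all genes. Ruvbl1, a chromatin remodelling ATPase, rose by 0.39, and Actl6a, an actin-related subunit that overlaps Mrpl47 on the other strand over 11.6% of its exon bases, fell by 0.49. Brd8 and Hcfc1, a bromodomain subunit and a host cell factor that binds MYC, fell by 0.30 and 0.18, the latter not past the threshold without NTC replicate 2 (adjusted p = 0.0577). Among 15 tested SIN3 and histone deacetylase genes, the corepressors of MXD proteins and MNT, 6 were higher and 3 lower (60% against 53.3%, median 0.05). Sin3b, Sap30 and Ncor1 fell by 0.41, 0.38 and 0.21, and Hdac2 rose by 0.24.

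The 11 genes of the Polycomb complex that contains MGA, PRC1.6, were higher in 5 cases and lower in 2 (63.6% called against 53.3% of all genes, median 0.12). Cbx3, Rybp, Yaf2 and Tfdp1 rose by 0.38, 0.49, 0.40 and 0.18. Of 23 genes that control the turnover of MYC protein, 10 were higher and 3 lower (56.5% called, near the 53.3% of all genes, median 0.09). Skp2 and Fbxl14, ubiquitin ligase subunits, rose by 0.51 and 0.50, Gsk3b, a kinase that marks MYC for degradation, by 0.40, and Cip2a, an inhibitor of the phosphatase that acts on MYC, by 0.36.

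Of 16 tested regulators of the Myc transcript, 9 were higher and 4 lower (81.3% called against 53.3% of all genes, median 0.11). Of all genes, 26.8% were higher and 26.5% lower. With shMed4 #1 alone 4 were higher and 3 lower, 43.8% called, near the 41.6% of all genes. With shMed4 #4 alone 8 were higher and 4 lower, 75% against 55.1%. Tcf7, a Wnt pathway factor, rose from 7.28 ± 1.39 CPM to 24.0 ± 0.695 and 39.0 ± 3.66 CPM (log2 2.07 over both hairpins, edgeR adjusted p = 2.78e-18). Tcf7l1, a related factor that often represses, fell from 9.28 ± 2.06 CPM to 4.23 ± 0.748 and 2.82 ± 0.344 CPM (log2 -1.42, adjusted p = 5.27e-09). Fubp1, which binds a far upstream element of Myc, fell by 0.42, and Cnbp, another nucleic acid binding protein, rose by 0.31.

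The genes most like Myc, Mycl and Mxd4 in their levels over the 9 libraries were found by the root-mean-square difference in log2 CPM, each gene centred on its NTC mean. The search covered 10137 tested genes whose mean level reached 5 CPM, without those that had no symbol or a clone or predicted name. Nearest to Myc were Slc25a22 (0.0481), Cebpzos (0.0599) and Alg11 (0.0610), where the median gene differed by 0.258. Nearest to Mycl were Cgnl1 (0.162), Adcy3 (0.171) and Pla2g15 (0.178), with a median gene at 1.20. For Mxd4 they were Ralgds (0.0764), Cpe (0.0771) and Fhod1 (0.0780), with a median gene at 0.629. Likeness over 9 libraries of 3 groups is a description and rests mainly on the 3 group means.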

How the data were processed

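The labels' protocols state that RNA of D2A1-d cells was extracted with a kit that includes DNase and sequenced, here as 9 libraries, on a BGISEQ-500 platform. The authors deposited raw counts of reads for each gene. Per the submitters' processing notes, STAR and HTSeq were used with the mouse build mm10, also named GRCm38. Their versions, the annotation and the use of strand in counting are not stated in the sources used here. The summary lines, in which 49.5 to 51.6% of records had no gene, were left out. Depth of 7572114 to 8582235 reads per library limits the precision of the low genes, and counting intervals cover counting error only. Groups follow the sample titles.

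Symbols and positions came from the reference tables and GENCODE M21. Of 55335 identifiers, 55154 matched a symbol. Replicate libraries differed from each other beyond sampling noise (chi-square over its degrees of freedom 1.53 to 2.95), so each counted once.

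Counts were fitted in R 4.3.3 with edgeR 4.0.16 (filterByExpr with a minimum count of 10, TMM, 1 quasi-likelihood model with 3 groups), and p-values were Benjamini-Hochberg adjusted over all 14335 genes tested. SEs were derived from the fold change and its F statistic. The steps were tested on simulated counts over 14068 genes, where 91.8% of 2-fold and 79.4% of 1.5-fold changes were recovered for the mean of both hairpins, with 11 false calls. For shMed4 #1 these were 84.7%, 74.2% and 2, and for shMed4 #4 86.7%, 73.2% and 9. The simulation left most genes unchanged and gave both hairpins the same effect, whereas 53.3% of genes were called in the data. These rates therefore hold for the simulated setting only. Simple calculations used Python 3.11.15. Promoter sequences are from RefSeq (GRCm38.p6).

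The members and gene lists were chosen with earlier results of these data known. Named genes are the members, Med4, Mxi1, Pvt1, up to 4 genes per list with the smallest adjusted p over both hairpins, the 4 most abundant activated targets, nearest tested neighbours and the 3 genes most like Myc and the 2 members with the largest changes. Other genes (marker genes, Eif4e, Mlxipl, Odc1, Srm, Nop2) were named after their values were seen. Alternatives were DESeq2 1.42.0, other size factors, no low-count filter, fits of only the libraries compared, the replicate number as a block, subtraction of the local chromosomal median, the longest transcript as length and leaving out each library. Counts of activated targets for single hairpins were followed under alternatives after seeing the data.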

Additional observations from a re-analysis of the deposited data

Results flagged for a closer look

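The hairpins differed from each other, in the edgeR test of shMed4 #4 minus shMed4 #1, in 4 of the 9 tested network genes, where 28.0% of all genes tested differed. Myc was higher with shMed4 #4 by 0.34 on the log2 scale (SE 0.062, adjusted p = 5.23e-05), with all 3 of its libraries above the shMed4 #1 libraries. Mycl stood at -0.77 (SE 0.18, adjusted p = 0.00116) and Mxd4 at -0.30 (SE 0.078, adjusted p = 0.00317), both lower in 3 of 3 shMed4 #4 libraries than in any shMed4 #1 library. Mxd3 stood at -0.35 (SE 0.094, adjusted p = 0.00477), also with no overlap. Med4 itself was 1.59-fold higher with shMed4 #4 than with shMed4 #1. The differences of Mycl and Mxd4 from NTC were thus larger with the hairpin that left more Med4 transcript.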

How the results depend on the processing

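The log2 fold changes of 76 gene and contrast pairs were followed under each alternative but the local one below, and of 1140 values 1111 stayed on their side of the threshold, 25 lost the call and 4 gained one, with no called value changing sign. Of the values never called, 17 changed sign, all of size 0.0945 or less. With both hairpins pooled as 1 group, 13 activated targets were higher and 6 lower, and 41 genes of the other lists were called. Of all 14335 genes, 5721 were then called, 2987 higher and 2734 lower, against 7640 in the main fit. The calls of Mxd1 (edgeR adjusted p = 0.104) and Mxd3 (0.125) were lost, with those of Hcfc1, Tfdp1, Ncl and Eif4a1. The cause was not tested. Upper-quartile factors moved the median gene by at most 0.05 on the log2 scale and took away the call of Mxd1 over both hairpins (adjusted p = 0.0759) and with shMed4 #1 (0.0540). DESeq2 also ended that of Mxd1 with shMed4 #1 (0.119), as did leaving out NTC replicate 1 (0.152), NTC replicate 2 (0.156), shMed4 #1 replicate 2 (0.0567) or shMed4 #1 replicate 3 (0.135). Without NTC replicate 3 Mxd1 was called with shMed4 #4 (0.0257).

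Leaving out each library in turn, 6 to 7 members were called over both hairpins, 5 to 6 with shMed4 #1, 6 to 8 with shMed4 #4 and 3 to 4 between hairpins. Activated targets numbered 18 to 22 higher and 8 to 13 lower over both, 6 to 9 and 12 to 18 with shMed4 #1, 26 to 29 and 5 to 7 with shMed4 #4, and 29 to 36 and 1 to 2 between hairpins, and 52 to 67 genes of the other lists were called. The 1 lower target between hairpins came without shMed4 #1 replicate 2 or shMed4 #4 replicate 2. Over the longest transcript, levels per length with NTC were 42.0 for Myc, 29.2 for Mxd3, 24.0 for Max, 17.6 for Mxd4, 6.67 for Mga and 2.73 for Mxd1.

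Same-numbered libraries did not deviate together (correlations -0.0840 to 0.0587), so the numbers were not taken to pair them. With the replicate block, the counts of members called were again 7, 6, 7 and 4, and 7537 genes were called over both hairpins against 7640. Subtracting the local chromosomal median moved 14 of 36 member values by more than the spread between replicates, with the values for single hairpins given beside each gene. Mycl and Mxd1 had the fewest reads of the members with reads, and depth limits their precision.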

Other observations

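Odc1, the ornithine decarboxylase gene and a classical MYC target, was named after its values were seen, as were Srm and Nop2, which were picked for their difference between the hairpins. It was at 537, 511 and 548 CPM with NTC, 440, 438 and 431 CPM with shMed4 #1 and 586, 540 and 539 CPM with shMed4 #4. It fell by 0.29 with shMed4 #1 (edgeR adjusted p = 1.08e-05), was at 0.06 with shMed4 #4 (adjusted p = 0.300), and differed between the hairpins by 0.35 (adjusted p = 7.77e-07). The polyamine gene Srm, spermidine synthase, was at 0.02 with shMed4 #1 (adjusted p = 0.830) and rose by 0.47 with shMed4 #4. The ribosome assembly gene Nop2 was likewise at 0.02 and rose by 0.47.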
